A study of Mus musculus with 13 samples.

Results

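The genes described here are the integrins and laminins of the mouse, 37 genes of the 37785 counted in this series. The members were chosen by gene symbol, as every gene that GENCODE M21 names as an integrin alpha or beta chain (18 and 8 genes) or as a laminin alpha, beta or gamma chain (11 genes). The families themselves were selected on measured values of these same samples, their CPM (gene counts scaled to a common library total) at the 4 ages, so the calls below describe the genes and their number is not evidence about the families. The samples were bulk total RNA of oligodendrocyte precursor cells (OPCs), the glial progenitors that give rise to myelinating oligodendrocytes, enriched from brains of wild-type C57BL/6 mice with magnetic beads against Pdgfra. There were 3 libraries at E16 (embryonic day 16), 3 at P12 (postnatal day 12), 3 at P80 and 4 at P310, the last of which the age labels give as P306 to P308. No genotype, allele or drug differed between the ages. Only the P80 and P310 cells went through a step with myelin removal beads, per the labels, so that step and adult age cannot be told apart. The question the design poses is how these cells change with age.

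The libraries held 8669521 to 25810455 gene counts. A count of 0 in a library allows up to 3 counts, which is 0.116 to 0.346 CPM of the library total, and such limits cover counting error only. P12 replicates 2 and 3 differed far less than the other pairs of replicates and were counted as 1 sample, called P12 replicate 2-3, which leaves 3, 2, 3 and 4 samples. The design text speaks of 3 to 4 mice at each age without tying a library to a mouse, so p-values measure the spread between these samples, which may be in part technical. As a check of the labelled cell type, Pdgfra, the gene of the receptor on which the cells were enriched, stood at 38.4, 35.5 and 25.1 CPM at E16, 46.6 and 93.6 at P12, 40.8, 17.2 and 53.4 at P80 and 68.8, 15.8, 13.7 and 24.6 at P310. Its P12 and E16 samples differed by a log2 change of 1.09 ± 0.64 (SE, adjusted p = 0.242), which did not pass the threshold. The 10 OPC markers summed to 632 to 788 CPM at E16 and 143 to 281 at P310, while the 15 endothelial markers summed to 52.4 to 84.8 at E16 and 5281 to 10090.4 at P310, above the OPC markers in every sample after E16. Most of the OPC sum at E16 came from Ptprz1, Vcan and Sox6, with means of 315, 243 and 94.4 CPM. Of the 10 OPC markers, 2 (Cspg4 and Neu4) rose and 2 (Vcan and Sox6) fell at P12, where 16.7% of all genes rose and 10.5% fell. The median log2 change of the 10 was 1.18. Cspg4, the NG2 proteoglycan gene, had a mean of 13.6 CPM at E16 and 67.05 at P310. The OPC markers named besides Pdgfra were picked after their values were seen. The 11 markers of immature neurons summed to 6712 to 7877 CPM at E16 and 107 to 130.4 at P80. Mitochondrial genes took 1.52% to 3.54% of counts at E16, 4.44% to 10.8% at P12 and 12.8% to 34.4% in the adults. Myelin genes set 2 libraries apart, with 67275 CPM in P310 replicate 2 and 8190.1 in P12 replicate 1 against at most 912 in the others, and the effect of leaving each of them out is given where it changes a call. In bulk samples such as these, fewer cells of a type and less RNA per cell cannot be told apart.

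Integrins are receptors made of 1 alpha and 1 beta chain that span the cell membrane and tie the matrix outside to the actin cytoskeleton inside. Laminins are secreted heterotrimers of 1 alpha, 1 beta and 1 gamma chain, and together with collagen IV, nidogens and perlecan they form the sheets called basement membranes. In the brain, basement membranes line blood vessels and the pial surface, and laminin acting through integrins of the beta 1 class is known to affect the survival and myelination of the oligodendrocyte lineage.

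The results below turn on the laminin beta chains Lamb1 and Lamb2, which held nearly all of the beta chain total, on Lama5, which rose at P12 and was high in the adults, and on Itga4, an integrin chain that rose and then fell. The start regions of these 4 genes are printed here for that reason. Each is the RefSeq window of GRCm38.p6 from 250 bases before to 50 bases after the annotated start, read 5′ to 3′ on the strand of the gene, with matches to the GC box GGGCGG or its reverse complement in capitals. Lamb1 lies on the plus strand at chr12:31265043-31265342, Lamb2 on the plus strand at chr9:108479612-108479911, Lama5 on the minus strand at chr2:180225810-180226109 and Itga4 on the plus strand at chr2:79255176-79255475.
Lamb1: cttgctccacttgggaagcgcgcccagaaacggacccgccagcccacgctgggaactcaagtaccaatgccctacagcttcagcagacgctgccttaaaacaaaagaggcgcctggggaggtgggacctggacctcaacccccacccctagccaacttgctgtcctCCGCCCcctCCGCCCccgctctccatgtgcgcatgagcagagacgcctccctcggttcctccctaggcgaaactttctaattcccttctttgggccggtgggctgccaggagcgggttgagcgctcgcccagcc
Lamb2: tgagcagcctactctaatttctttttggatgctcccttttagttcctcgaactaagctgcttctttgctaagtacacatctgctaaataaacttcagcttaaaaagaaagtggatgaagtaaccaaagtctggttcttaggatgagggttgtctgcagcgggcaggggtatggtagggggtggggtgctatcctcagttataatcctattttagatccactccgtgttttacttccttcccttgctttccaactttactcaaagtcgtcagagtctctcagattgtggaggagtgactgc
Lama5: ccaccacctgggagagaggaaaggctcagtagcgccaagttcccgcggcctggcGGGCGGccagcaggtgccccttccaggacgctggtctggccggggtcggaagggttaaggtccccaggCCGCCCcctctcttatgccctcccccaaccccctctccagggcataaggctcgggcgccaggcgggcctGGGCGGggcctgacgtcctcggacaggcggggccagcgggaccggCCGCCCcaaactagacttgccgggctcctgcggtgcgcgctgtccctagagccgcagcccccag
Itga4: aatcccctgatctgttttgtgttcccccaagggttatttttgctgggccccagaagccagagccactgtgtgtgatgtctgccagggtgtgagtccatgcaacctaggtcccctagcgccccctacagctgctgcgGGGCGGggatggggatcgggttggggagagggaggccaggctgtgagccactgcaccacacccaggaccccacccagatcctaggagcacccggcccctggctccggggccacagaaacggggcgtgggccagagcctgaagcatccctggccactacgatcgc
The Lamb1 window held 2 GC boxes and 63.7% G and C, and the Lamb2 window held 0 and 44.0%. The Lama5 window held 4 GC boxes at 72.7% G and C, and that of Itga4 held 1 at 64.3%. Among all 32851 windows of this length, 35.7% held a GC box on either strand and 10.7% held 3 or more. None of the 4 windows held the TATA box TATAAA, which 13.6% of all windows held on either strand. Likewise none held the ETS core CCGGAA, found in 14.9% of all windows, and none the AP-1 site TGACTCA, found in 5.2%. A match is a description of the letters and not a binding site, and 23 of the 37 members had a window in the table.

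From E16 to P12, 26 of the 36 members tested rose and 0 fell, at an adjusted p under 0.05 in edgeR's quasi-likelihood test over all genes. Of all 21170 genes tested, 16.7% rose and 10.5% fell. Those that rose were 9 of the 11 laminins and 17 of the 25 integrins tested. At that step 27 members and 8062 of all genes had an unadjusted p under 0.05. The median log2 change of the members was 2.55, against 0.09 over all genes tested. From P12 to P80, 3 members fell and 0 rose, where 1.02% of all genes fell and 0.406% rose. Here 10 members and 2065 of all genes had an unadjusted p under 0.05. From P80 to P310, 0 members were called in either direction, and 0% of all genes rose and 0% fell. At that step 5 members and 1162 of all genes had an unadjusted p under 0.05, and DESeq2 called 28 genes, 0 of them members. Over all ages together, 26 members were called, against 37.1% of all genes, and 25 of these were also called at P12. Since the members were selected on these values, nothing is read from the distance between their shares and those of all genes. Itgad had too few counts to be tested. As a share of all gene counts, the 37 genes took 0.0589% to 0.0781% at E16, 0.406% to 0.421% at P12, 0.255% to 0.346% at P80 and 0.147% to 0.348% at P310, the lowest adult value being that of P310 replicate 2.

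**Figure D1:**
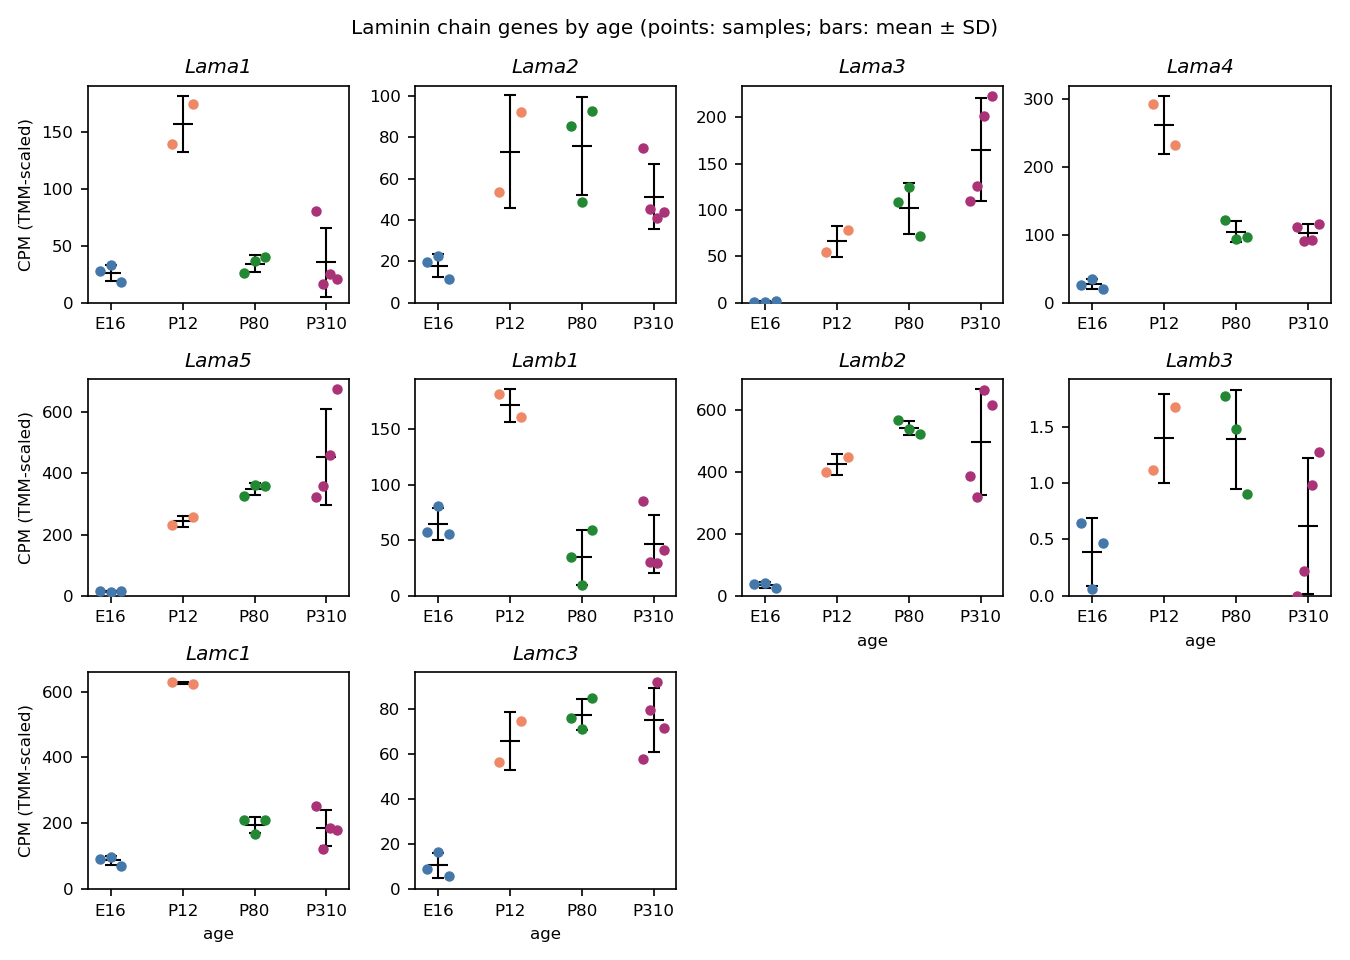
TMM-scaled CPM of 10 laminin genes against age, 1 panel per gene with its own linear axis from 0, with points for samples and bars for the mean ± SD of an age. Lama5 and Lamb2 went from at most 16.6 and 41.99 CPM at E16 to at least 231 and 402 at P12 and stayed high, whereas Lamc1, Lama4, Lama1 and Lamb1 were highest at P12.

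All 5 laminin alpha chains rose at P12, and 1 of them, Lama4, fell from P12 to P80. Lama5, the alpha chain of laminins of mature vessels and epithelia, stood at 16.6, 14.1 and 14.3 CPM at E16, 231 and 257 at P12, 326, 362 and 358 at P80 and 323, 359, 459 and 675 at P310. All P12 samples lay above all E16 samples, and the adult samples lay above those of P12. The log2 change to P12 was 4.02 ± 0.28 (SE, adjusted p = 9.53e-08), and the step to P80 of 0.52 ± 0.27 (SE, adjusted p = 0.605) did not pass. Lama3, the alpha chain of the laminin of epithelial anchoring structures, stood at 1.22, 0.483 and 1.36 CPM at E16, 54.6 and 78.2 at P12, 108, 125 and 71.6 at P80 and 109.5, 126, 202 and 223 at P310. It had the largest log2 change of any member, 6.02 ± 0.45 (SE, adjusted p = 1.66e-07), from E16 samples near 1 CPM. The levels of P80 and P310 overlapped. Lama4, the alpha chain found in vessel walls from early development on, stood at 26.4, 34.9 and 20.6 CPM at E16, 292 and 232 at P12, 122, 94.5 and 97.1 at P80 and 111, 90.3, 91.9 and 116 at P310. Its P12 samples were the highest of all, and the later samples lay between those of E16 and P12. Lama4 rose by 3.26 ± 0.25 (SE, adjusted p = 2.44e-07) on the log2 scale and then fell, with a log2 change of -1.33 ± 0.25 (SE, adjusted p = 0.0118). That fall lost its call without P12 replicate 1, the library with high myelin genes (adjusted p = 0.198), and also without P80 replicate 2 (0.0552), without P80 replicate 3 (0.0827) and in a test against a 1.5-fold change (0.0896).

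Lama1, the alpha chain of the earliest basement membranes and of the pial surface, ranged from 18.3 to 32.8 CPM at E16, 139.6 to 174 at P12, 25.97 to 40.4 at P80 and 16.2 to 80.8 at P310. Its rise to P12 was 2.58 ± 0.56 (SE, adjusted p = 0.00444) on the log2 scale. Its P80 samples lay below those of P12 without overlap, but the log2 change of -2.19 ± 0.56 (SE, adjusted p = 0.0988) did not pass in the fit to all samples. Without P310 replicate 1, where Lama1 was highest among the adults, the adjusted p of that step was 0.00251. The step to P80 also passed without P310 replicate 2, the library with the most myelin RNA (adjusted p = 0.0454). It passed in 7 of the 23 alternatives in all. Lama2, the alpha chain known from muscle and from vessels of the brain, ranged from 11.7 to 22.4 CPM at E16 and 53.7 to 92.4 at P12, and its rise of 2.03 ± 0.37 (SE, adjusted p = 0.000817) passed. At P80 it ranged from 48.7 to 92.98 CPM, which overlapped with P12.

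Of the laminin beta chains, Lamb2 rose at P12 and the other genes of the class were not called there. Lamb2, the beta chain of mature vessel and synaptic laminins, stood at 39.1, 41.99 and 25.8 CPM at E16, 402 and 448 at P12, 568, 539 and 524 at P80 and 387, 318, 668 and 618 at P310. Samples of P12 and later were all above those of E16, and the adult groups overlapped with each other. The log2 change to P12 was 3.58 ± 0.31 (SE, adjusted p = 7.04e-07). Lamb1, the beta chain of developing tissues, stood at 57.7, 80.96 and 55.2 CPM at E16, 182 and 161 at P12, 34.6, 10.1 and 58.97 at P80 and 85.3, 30.02, 29.6 and 41.3 at P310. It was highest at P12, and its adult samples overlapped with those of E16. The log2 change was 1.40 ± 0.59 (SE, adjusted p = 0.103) to P12 and -2.30 ± 0.60 (SE, adjusted p = 0.115) to P80, and neither passed the threshold in the fit to all samples. Over all ages together Lamb1 was called in that fit (adjusted p = 0.0263). The step to P12 passed in 4 of the 23 alternatives. They were without P80 replicate 2 (adjusted p = 0.023), limma-voom (0.00759), no low-count filter (0.000194) and only the 2 ages compared (0.00109). The step to P80 passed in 5 of the 23. They were without P310 replicate 1 (adjusted p = 0.0492), DESeq2 (0.00548), limma-voom (0.0087), no low-count filter (1.39e-09) and P12 replicates 2 and 3 kept apart (0.0449). Lamb3, a beta chain of epithelial laminin, stayed at or below 1.77 CPM and was not called.

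Divided by exon length, to set chains side by side, Lamb1 made up 47.1, 54.1 and 56.3% of the CPM per kb of the beta chains in the 3 E16 samples. Its share was 21.6 and 18% at P12, 3.60, 1.14 and 6.45% at P80 and 11.9, 5.46, 2.64 and 3.93% at P310. No E16 sample overlapped with any later one, and no P12 sample with an adult one. Lamb2 took nearly all of the remainder, so its share mirrors that of Lamb1 by construction, with mean shares of 46.9% at E16 and 96.0% at P80. Among the alpha chains, Lama5 went from a mean share of 18.1% ± 4.07 (SD, n = 3) at E16 to 30.5% at P12 and 53.7% ± 2.93 (SD, n = 3) at P80, while Lama1 went from 36.2% ± 2.36 to 6.34% ± 1.41. Lama3 went from 1.38% to 16.6%. Lama4 took 29.9% at E16, 31.1% at P12 and 15.2% at P80. Among the gamma chains, Lamc1 went from 85.6% and 87.0% at E16 and P12 to 63.9% at P80, with Lamc3 at 34.6% there. These shares were not tested.

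**Figure D2:**
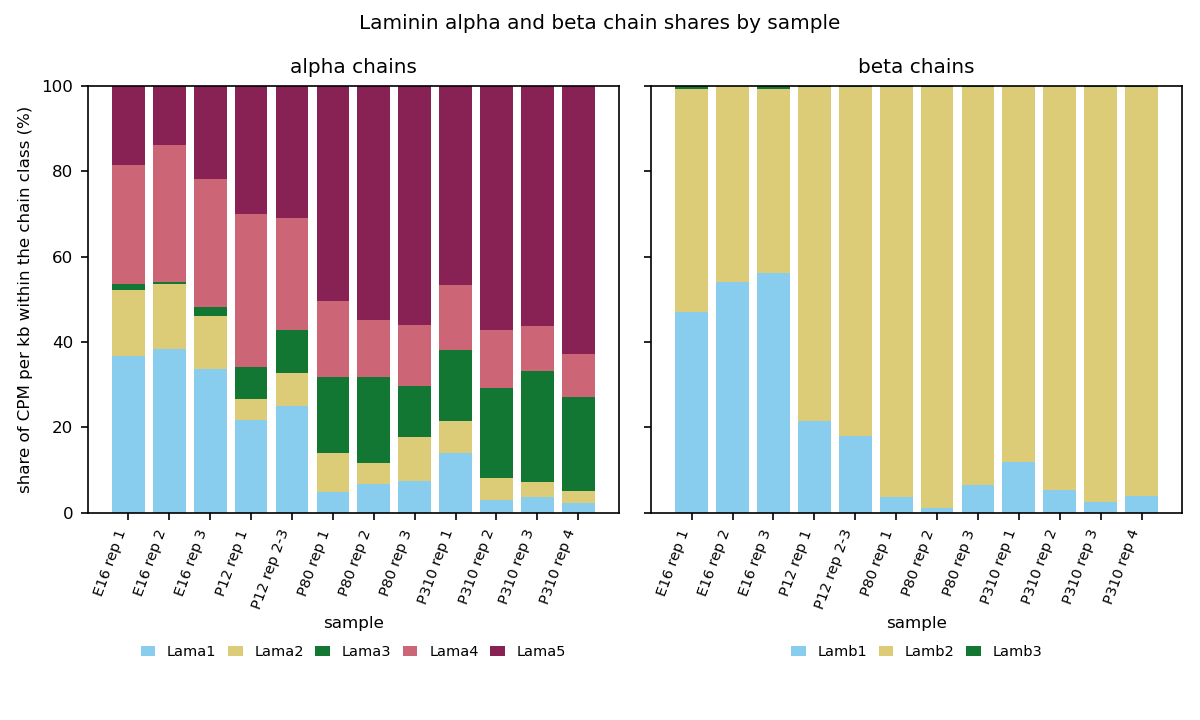
Stacked bars of the share of CPM per kb that each laminin alpha chain (left) or beta chain (right) takes within its class, in percent, for each of the 12 samples. The Lamb1 part of the beta chains runs from at least 47.1% at E16 to at most 6.45% at P80, and Lama5 takes the largest part of the alpha chains in every adult sample.

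Among the gamma chains, Lamc1 and Lamc3 rose at P12. Lamc1, the gamma chain of most laminins, on chromosome 1 from 153218922 to 153332786 (GRCm38, minus strand), stood at 92.8, 97.5 and 71.2 CPM at E16, 629 and 624 at P12, 209, 168 and 209 at P80 and 253, 120.3, 187 and 178 at P310. The P12 samples were the highest and the adult samples lay between E16 and P12. After a rise of 2.85 ± 0.27 (SE, adjusted p = 1.69e-06) on the log2 scale it fell from P12 to P80, with a log2 change of -1.68 ± 0.26 (SE, adjusted p = 0.00441), and both calls held in every alternative tried. Lamc3, a gamma chain of brain and retinal laminins, stood at 9.07, 16.7 and 5.90 CPM at E16, 56.7 and 74.8 at P12, 76.2, 71.4 and 85.2 at P80 and 57.9, 79.7, 92 and 71.7 at P310. It rose by 2.64 ± 0.35 (SE, adjusted p = 4.72e-05) on the log2 scale, and its P12, P80 and P310 samples overlapped.

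Markers of vessel cells rose from E16 to P12, where 16.7% of all genes rose. The 15 endothelial markers summed to 52.4 to 84.8 CPM at E16, 5438 to 6967 at P12, 6823 to 8089 at P80 and 5281 to 10090.4 at P310, and 15 of 15 rose at P12. From P12 to P80, 1 of the 15 fell and 0 rose, with a median log2 change of 0.142. The laminins summed to a mean of 2097 CPM at P12 and 1522 at P80. None of the endothelial markers was at 0 in all samples of an age. Pecam1, the adhesion molecule CD31, stood at 4.25, 5.67 and 5.01 CPM at E16 and 489 and 447 at P12. Of the 10 mural cell markers 8 rose, and they summed to 155 to 238 CPM at E16 and 875 to 1174 at P12. Fibroblast and meningeal markers, where 4 of 11 tested rose, summed to 545 to 581 CPM at E16, 1238 to 1981 at P12, 399 to 825 at P80 and 333 to 675 at P310, with their highest values at P12. Astrocyte markers, 9 of 10 of which rose, summed to 347 to 401, 2814 to 3384, 1301 to 2000.5 and 731 to 1615 CPM, also highest at P12. Their part in the changes of laminin and integrin genes was not tested.

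**Figure D3:**
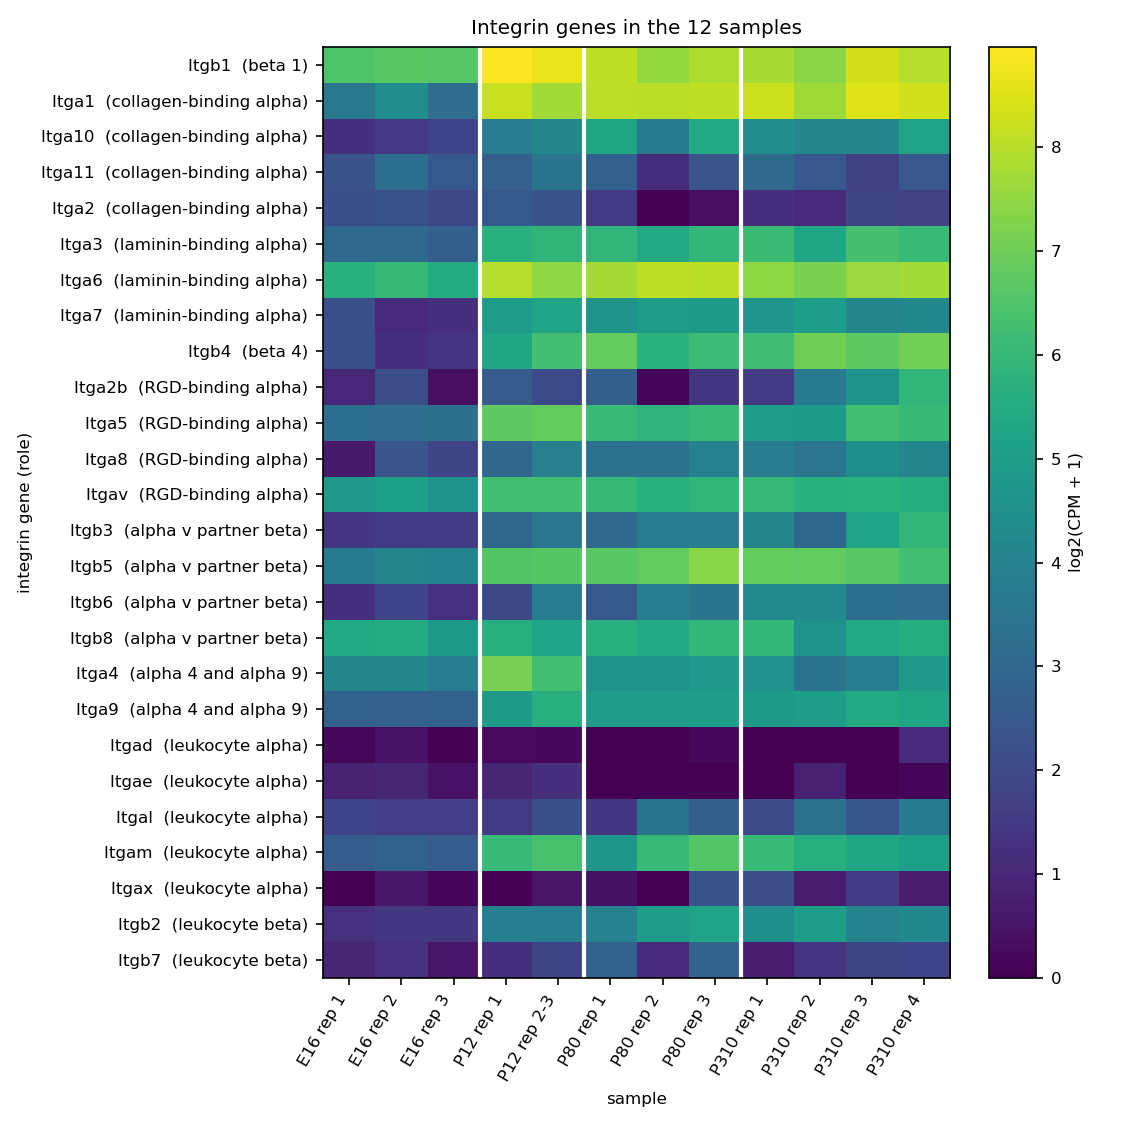
Heat map of the 26 integrin genes, as rows grouped by role, in the 12 samples, as columns with white lines between ages, where colour gives log2(CPM + 1) from dark (low) to yellow (high). Most rows brighten from E16 to P12, Itgb8 does not, and Itga4 is brightest in the P12 columns, at 140.3 and 75.9 CPM.

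Itgb1, the beta chain shared by most matrix receptors, was the member with the highest CPM per kb at E16 and P12, and Lamb2 was the highest at P80 and P310. Itgb1 stood at 90.2, 102 and 99.1 CPM at E16, 499 and 418 at P12, 278, 188 and 232 at P80 and 229, 168, 324 and 250.1 at P310. Its P12 samples lay above all others, and those of P80 and P310 overlapped. It rose by 2.24 ± 0.26 (SE, adjusted p = 1.16e-05) on the log2 scale. The later log2 change of -0.98 ± 0.26 (SE, adjusted p = 0.0855) did not pass in the fit to all samples. That step passed in 3 of the 23 alternatives. It passed without P310 replicate 2, the library with the most myelin RNA (adjusted p = 0.0306). The others were P12 replicates 2 and 3 kept apart (adjusted p = 0.0362) and no low-count filter (adjusted p = 0.0419).

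The 3 alpha chains grouped here as laminin-binding, Itga3, Itga6 and Itga7, all rose. Itga6, the alpha chain of the classic laminin receptors, stood at 51.2, 62.9 and 44.3 CPM at E16, 248 and 178 at P12, 213, 275 and 259 at P80 and 173, 143, 193 and 208 at P310. All later samples lay above those of E16, with a log2 change to P12 of 2.01 ± 0.24 (SE, adjusted p = 1.46e-05). Between P80 and P310 its samples did not overlap, but the log2 change of -0.47 ± 0.20 (SE, adjusted p = 0.871) did not pass. Itga3, a receptor chain for laminins with alpha 3 or alpha 5, stood at 7.27, 7.42 and 5.60 CPM at E16, 50.8 and 57.4 at P12, 58.7, 41.5 and 60.4 at P80 and 67.6, 39.04, 78.6 and 64.4 at P310. It rose by 3.00 ± 0.30 (SE, adjusted p = 3.33e-06) on the log2 scale and overlapped between all later ages. Itga7, known from muscle and from vessel walls, rose by 4.05 ± 0.47 (SE, adjusted p = 1.27e-05) on the log2 scale, with 3.53, 1.15 and 1.30 CPM at E16 and 29.3 and 36.3 at P12. Itgb4, the partner of alpha 6 in anchoring structures, stood at 3.53, 1.33 and 1.59 CPM at E16, 38.8 and 77.1 at P12, 114, 52.4 and 69.1 at P80 and 72.6, 130.4, 103 and 133 at P310. Its log2 change of 4.76 ± 0.48 (SE, adjusted p = 4.12e-06) was the largest of any integrin, and its levels at P12, P80 and P310 overlapped. About 7.66% of the Itgb4 exon bases lie over a long noncoding RNA on the other strand, and reads of both cannot be told apart in these counts.

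Of the 4 collagen-binding alpha chains, 2 rose. Itga1, a collagen receptor chain of vessel and stromal cells, stood at 11.2, 20.03 and 8.31 CPM at E16, 296 and 212 at P12, 265, 262 and 272 at P80 and 302, 207, 367 and 319 at P310. Its log2 change to P12 was 4.27 ± 0.34 (SE, adjusted p = 3.07e-07), and the adult samples overlapped with those of P12. Itga10, a collagen receptor chain best known from cartilage, stood at 1.37, 1.81 and 2.48 CPM at E16, 13 and 16.1 at P12, 38.4, 11.7 and 43.5 at P80 and 19.8, 16.8, 16.1 and 35.1 at P310 and rose by 2.94 ± 0.52 (SE, adjusted p = 0.00063) on the log2 scale. Since 33.5% of its exon bases are shared with the gene Gm42957 on the same strand and reads over both were counted for each, its values are uncertain. Itga11 and Itga2, the remaining collagen receptor chains, had log2 changes of 0.46 ± 0.68 (SE, adjusted p = 0.668) and 0.30 ± 1 (SE, adjusted p = 0.858). Itga2 ranged from 3.99 to 4.48 CPM at P12 and 0 to 1.90 at P80, and that difference did not pass either (adjusted p = 0.417).

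Among the alpha chains that bind the RGD motif of fibronectin and vitronectin, 3 of 4 rose. Itga5, the fibronectin receptor chain, stood at 8.42, 8.14 and 8.90 CPM at E16, 107 and 113 at P12, 65.6, 55.7 and 65.8 at P80 and 29.4, 28.3, 74.7 and 63.9 at P310. The P12 samples were the highest, the rise was 3.70 ± 0.38 (SE, adjusted p = 3.56e-06), and the later log2 change of -0.82 ± 0.36 (SE, adjusted p = 0.453) did not pass. Itgav, which pairs with beta 1, 3, 5, 6 or 8, stood at 27.6, 33 and 23.3 CPM at E16, 75.3 and 75.02 at P12, 63.3, 47.9 and 58.9 at P80 and 62.4, 50.9, 52.3 and 47.1 at P310. Its rise of 1.43 ± 0.23 (SE, adjusted p = 0.000329) was the smallest among the members that rose at P12. Itga8, a receptor chain for nephronectin, rose by 2.08 ± 0.61 (SE, adjusted p = 0.0204) on the log2 scale, with 0.576, 4.16 and 2.59 CPM at E16 and 6.72 and 14.04 at P12, a call lost without E16 replicate 3 (adjusted p = 0.0561) and without P12 replicate 2-3 (log2 change 1.45, adjusted p = 0.229).

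Of the 4 beta chains besides beta 1 that pair with alpha v, 3 rose at P12. Itgb5, the vitronectin receptor chain, stood at 11.5, 15.99 and 15.4 CPM at E16, 92.5 and 96.5 at P12, 101, 110.4 and 165 at P80 and 115, 111, 99.5 and 74.7 at P310 and rose by 2.72 ± 0.27 (SE, adjusted p = 2.5e-06) on the log2 scale. Itgb8, which with alpha v frees TGF-beta from its latent form, ranged from 28.8 to 44.3 CPM at E16, 36.7 to 48.8 at P12, 43.4 to 60.2 at P80 and 22.98 to 59.8 at P310. The E16 and P12 samples of Itgb8 overlapped, with a log2 change of 0.15 ± 0.35 (SE, adjusted p = 0.798). The difference between Itgb8 and the other chains was not tested. Itgb6, an epithelial chain that also acts on latent TGF-beta, stood at 1.29, 2.47 and 1.42 CPM at E16 and at 2.86 and 13.1 at P12, and its rise of 2.21 ± 0.66 (SE, adjusted p = 0.0213) rested on P12 replicate 2-3, without which the log2 change was 0.72 (adjusted p = 0.582). The Itgb6 call was also lost without E16 replicate 1 or 3 (adjusted p = 0.0768 and 0.0751).

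Itga4, whose product pairs with beta 1 to bind VCAM1 and the spliced CS-1 stretch of fibronectin, stood at 15.8, 16.9 and 12.6 CPM at E16, 140.3 and 75.9 at P12, 23.2, 22.6 and 27.2 at P80 and 22.4, 9.90, 13.7 and 27.96 at P310. The P12 samples lay above every other sample, though they differed from each other, and P310 replicates 2 and 3 came down to the range of E16 or below. It rose by 2.84 ± 0.40 (SE, adjusted p = 7.47e-05) on the log2 scale and then fell, with a log2 change of -2.15 ± 0.39 (SE, adjusted p = 0.0107). These comparisons share the P12 samples, so the rise and the fall are not independent. Without P12 replicate 1 the fall was -1.65 and did not pass (adjusted p = 0.261), and it narrowly missed without P80 replicate 1 (0.0527) or P80 replicate 3 (0.0507). Of the Itga4 exon bases, 8.04% lie over Cerkl on the other strand. Itga9, a tenascin and VCAM1 receptor chain, stood at 5.83, 5.73 and 5.96 CPM at E16, 28.5 and 48.98 at P12, 29.3, 29.03 and 31.6 at P80 and 28.2, 30.6, 43.2 and 38.9 at P310. It rose by 2.73 ± 0.30 (SE, adjusted p = 8.52e-06) and its later samples overlapped with those of P12.

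**Figure D4:**
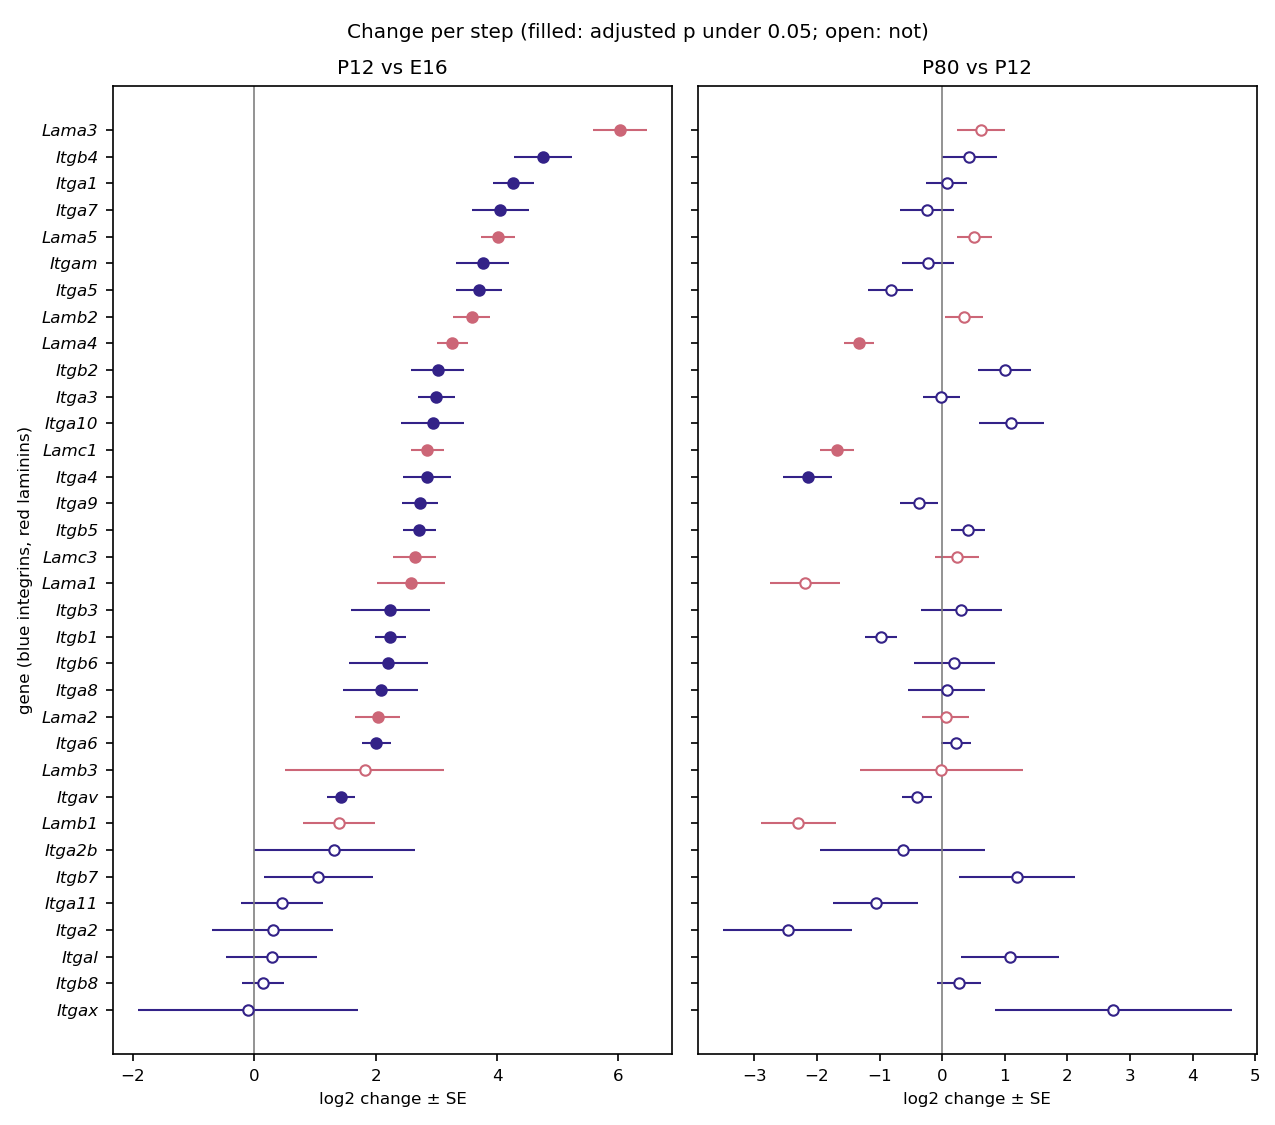
Log2 change of 34 members from E16 to P12 (left) and from P12 to P80 (right), with bars of 1 SE, filled points for an adjusted p under 0.05 and blue for integrins, red for laminins (among those left out are Itgad, which was not tested, and Itgae, which had 0 counts in every P80 sample). The first step lies to the right of 0 for most members, and Lamc1, Itga4 and Lama4 are the members called in the second.

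Of the leukocyte alpha chains, 1 of 4 tested rose. Itgam, the CD11b chain of microglia and other myeloid cells, stood at 5.11, 5.85 and 5.13 CPM at E16, 64.6 and 80.4 at P12, 25.8, 64.8 and 94.7 at P80 and 64.5, 48.7, 37.7 and 32.7 at P310. Its log2 change to P12 was 3.76 ± 0.44 (SE, adjusted p = 1.36e-05). Its exons share 68.7% of their bases with Gm49368 on the same strand, and reads over both were counted for each, so the value is uncertain. Itgb2, the beta chain that pairs with the leukocyte alpha chains, stood at 1.44, 1.75 and 1.77 CPM at E16, 13.7 and 13.4 at P12, 14.8, 29.03 and 37.1 at P80 and 20.98, 31.1, 15.2 and 17.2 at P310 and rose by 3.02 ± 0.43 (SE, adjusted p = 9.87e-05) on the log2 scale. Its P80 samples lay above those of P12, but the log2 change of 0.995 ± 0.43 (SE, adjusted p = 0.444) did not pass. Of the microglia markers, 10 of 12 rose at P12, where 16.7% of all genes rose, and none was at 0 throughout an age. They summed to 153 to 177 CPM at E16, 1015 to 1084 at P12, 372 to 1257 at P80 and 324 to 1223 at P310. Tmem119, a marker of microglia, stood at 1.66, 1.75 and 1.12 CPM at E16 and 33.03 and 45.1 at P12. The part of microglia in the levels of Itgam and Itgb2 was not tested. Itgal, Itgax, Itgae and Itgb7, chains of lymphocytes, dendritic cells and mucosal T cells, were not called at any step, with at most 11.6 CPM in any sample. Itgae had 0 counts in all 3 P80 samples, and Itgad had at most 1.10 CPM.

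The chains of the platelet fibrinogen receptor, Itga2b and Itgb3, had an SD of 24.8 and 23.7 CPM over the 4 samples of P310, more than at any other age. Itga2b stood at 1.01, 3.44 and 0.295 CPM at E16, 4.98 and 3.01 at P12, 5.58, 0.123 and 1.74 at P80 and 1.98, 12.1, 23.7 and 58.8 at P310. Only P310 replicates 2, 3 and 4 lay above every younger sample, and replicate 1 lay within their range. Itgb3, which also pairs with alpha v, stood at 1.66, 1.99 and 1.95 CPM at E16, 7.09 and 10.6 at P12, 7.35, 13.1 and 12.5 at P80 and 15.97, 7.15, 35.6 and 60.6 at P310. It rose from E16 to P12 by 2.24 ± 0.65 (SE, adjusted p = 0.0192) on the log2 scale, a call lost without any one of the E16 samples (adjusted p of 0.0511 to 0.0659) or without P12 replicate 2-3 (0.124). P310 replicates 1, 3 and 4 lay above every younger sample. From P80 to P310 the log2 changes were 3.24 ± 1.24 (SE, adjusted p = 0.871) for Itga2b and 1.45 ± 0.56 (SE, adjusted p = 0.871) for Itgb3, and neither passed. Without the low-count filter both passed (adjusted p = 3.19e-07 and 0.0397). The 7 platelet and megakaryocyte markers summed to 36.6 and 29.7 CPM in P310 replicates 3 and 4 and to 3.89 to 10.7 in the other samples, and 0 of 7 were called. Of these, Ppbp stood at 0.132, 0, 9.72 and 4.42 CPM at P310 and Treml1 was at 0 in all P80 samples. Only Gp9 had a lower mean at P310 than at P80, with 0.57, 4.2 and 0.209 CPM at P80 and 0, 0.11, 0.624 and 1.19 at P310. Pf4 stood at 5.67 and 6.43 CPM in E16 replicates 2 and 3, and at 5.88 and 6.8 in P310 replicates 3 and 4. The platelet markers named were picked after their values were seen. The part of platelets in the Itga2b and Itgb3 levels was not tested.

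**Figure D5:**
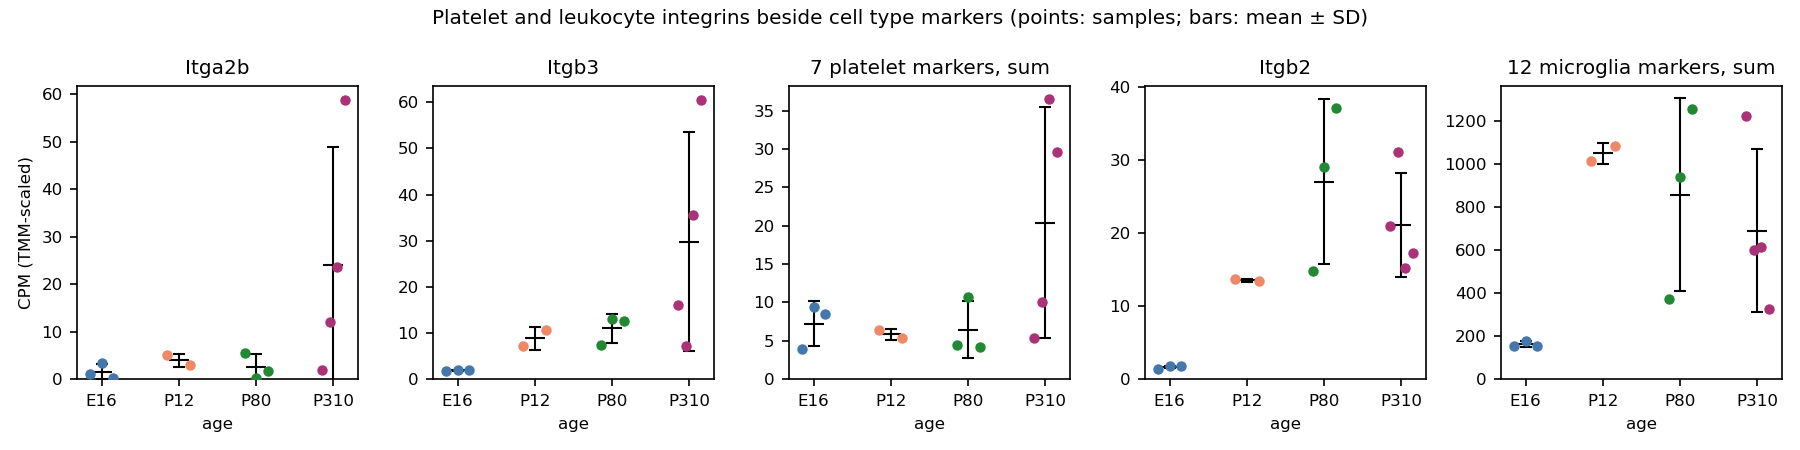
TMM-scaled CPM of Itga2b, Itgb3 and Itgb2 against age beside the summed CPM of the 7 platelet and 12 microglia markers, with points for samples and bars for the mean ± SD of an age, cut off at 0 where they would run below it. The points of P310 replicates 3 and 4 are the highest for Itgb3, at 35.6 and 60.6 CPM, and for the platelet markers.

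Genes that work with these families moved in the same step. Of 33 integrin adaptors and signalling genes, 23 rose and 1 fell at P12, where 16.7% of all genes rose and 10.5% fell. Their median log2 change was 1.72, against 0.09 over all genes. Tns1, which links integrins to actin, rose by 3.73 ± 0.23 (SE, adjusted p = 2.74e-08), Parvb, a partner of integrin-linked kinase, by 4.76 ± 0.31 (SE, adjusted p = 4.43e-08), and Lims2, which binds the same kinase, by 5.76 ± 0.39 (SE, adjusted p = 6.14e-08). Against them, Fyn, a kinase downstream of integrins in oligodendrocytes, fell by 0.932 on the log2 scale with an SE of 0.291 (adjusted p = 0.0271), a call lost without E16 replicate 1, E16 replicate 3 or P12 replicate 2-3 and in the test against a 1.5-fold change, where 0 genes of the list fell. From P12 to P80, 0 of the 33 were called.

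Of 15 basement membrane partners of laminin, 13 rose and 0 fell at P12, where 16.7% of all genes rose and 10.5% fell. Their median log2 change was 3.00, against 0.09 over all genes. Sparc, a collagen-binding matrix protein, rose by 4.34 ± 0.28 (SE, adjusted p = 3.81e-08), Hspg2, which encodes perlecan, by 3.43 ± 0.24 (SE, adjusted p = 9.33e-08), and Col4a2, a collagen IV chain, by 3.64 ± 0.28 (SE, adjusted p = 1.76e-07). From P12 to P80, 6 of the 15 fell and 0 rose, where 1.02% of all genes fell and 0.406% rose. The log2 change of Sparc was -1.81 ± 0.26 (SE, adjusted p = 0.00253) and that of Col4a2 was -1.85 ± 0.26 (SE, adjusted p = 0.00253). The others that fell, named here after their values were seen, were Col4a1, Col18a1, Nid1 and Nid2, which encode another collagen IV chain, a vessel-wall collagen and the nidogens that bridge laminin and collagen IV. They had log2 changes between -2.19 and -1.6. Without P12 replicate 1, 3 of the 15 fell. The 15 genes summed to 837 to 1229 CPM at E16, 7308 to 8747 at P12, 2875 to 2953 at P80 and 2277 to 2901 at P310, highest at P12 as the fibroblast and astrocyte markers were, whose part was not tested.

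Of 13 laminin receptors other than integrins, 5 rose and 0 fell at P12, where 16.7% of all genes rose and 10.5% fell. Their median log2 change was 0.96, against 0.09 over all genes. Bcam, a receptor for laminin alpha 5, rose by 5.45 ± 0.28 (SE, adjusted p = 6.73e-09), Utrn, which ties the dystroglycan complex to actin, by 3.86 ± 0.25 (SE, adjusted p = 5.07e-08), and Dmd, the dystrophin gene, by 1.40 ± 0.23 (SE, adjusted p = 0.000292). From P12 to P80 Utrn rose again, by 1.31 ± 0.25 (SE, adjusted p = 0.0165), a call lost without either P12 sample, without P80 replicate 1, without P80 replicate 2 and in the test against a 1.5-fold change. Of 19 other integrin ligands, 12 rose and 0 fell at P12, beside the same shares of all genes. Vwf, a platelet-binding protein made by endothelium, rose by 7.80 ± 0.45 (SE, adjusted p = 2.03e-08), Icam2, a leukocyte integrin ligand of endothelium, by 7.82 ± 0.59 (SE, adjusted p = 1.93e-07), and Tgfb1, a growth factor that integrins free from its latent form, by 3.86 ± 0.30 (SE, adjusted p = 2.2e-07). Vwf and Icam2 rose beside 15 of 15 endothelial markers, whose part was not tested. In this ligand list 0 genes were called from P12 to P80, and from P80 to P310 no gene of the 4 lists was called.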

How the data were processed

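The 13 libraries of enriched OPCs were assigned to ages by their titles. The authors deposited unnormalised counts of each gene, from featureCounts 1.5.0-p1 over exons of Ensembl release 92 (GRCm38), per the file headers. A read had to cover 10 bases of a gene, counted for every gene it overlapped or mapped to, and strand was ignored, so overlapping genes share reads. Trim Galore and TopHat2 2.1.1 are named in the submitters' processing notes. Exon lengths came from the same files.

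P12 replicates 2 and 3, whose counts differed by 2.34 times the squared counting noise against at least 16.6 in the other 14 pairs of replicates, were summed. Genes passing filterByExpr were scaled by TMM and fitted with 1 mean per age over all 12 samples in edgeR 4.0.16 (R 4.3.3, robust quasi-likelihood F test), with Benjamini-Hochberg adjustment over 21170 genes and a threshold of 0.05. Errors of log2 changes are the size of the change divided by the root of F. Gene symbols were taken from GENCODE M21 and matched 37715 of 37785 identifiers. DESeq2 1.42.0, limma 3.58.1 (voom), other scalings and filters, a replicate term and leaving out each sample were alternatives. The procedure was run on simulated data in which far fewer genes changed than were called here from E16 to P12. That run therefore does not show how the scaling behaves at that step. Python 3.11.15 with pandas 2.3.3 and matplotlib 3.10.9 was used for summaries. Windows of sequence came from RefSeq (GRCm38.p6).

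Members, lists and rules were chosen with earlier results of these data known. In each role, values in every sample are given for the 2 members (or 1) whose adjusted p over all ages was smallest, and for members called after P12. Of each other list, up to 3 genes with the smallest adjusted p at P12, and called genes that go against the others, are named. Itgae and Itgb7, which the rule also allows, are given by their range. The values of some genes are left out of the text.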

Additional observations from a re-analysis of the deposited data

Results flagged for a closer look

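Of 36 combinations of member and group of 4 samples checked for a sample far from the others at P310, 3 stood apart. For normally distributed values about 1 in 20 such checks would do so by chance. Lama1 stood at 80.77 CPM in P310 replicate 1 and at 16.2 to 25.1 in the other samples of that age. Lama2 stood at 74.83 CPM in the same library and at 40.9 to 45.5 in the others. That library was also the highest of its age in Lamb1, with 85.3 CPM, and in Lamc1, with 253. It was likewise the highest of its age in 5 of the marker sums: ependymal and choroid plexus markers, with 6258 CPM against 574 to 2339, microglia, with 1223 CPM against 324 to 613, astrocytes, with 1615 CPM against 731 to 1005, mural cells, with 1437 CPM against 793 to 1237, and border macrophages and leukocytes, with 155 CPM against 90.3 to 129. Their part in the laminin values was not tested. Itgad stood at 1.105 CPM (13 counts) in P310 replicate 4 and at 0 in the other P310 samples. With 0 in all the others, any value that entered the check would stand apart, so this flag carries no weight.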

How the results depend on the processing

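Between 22 and 27 members rose from E16 to P12 when any one sample was left out, and 25 to 28 under the other settings, against 26 as reported, and 0 fell in any setting. From P12 to P80, 3 members fell as reported, 5 with DESeq2, and 6 each with P12 replicates 2 and 3 kept apart, with limma-voom and with no low-count filter. That count ranged from 1 (without P12 replicate 1 or without P80 replicate 3) to 5 (without P310 replicate 1 or 2). From P80 to P310, 2 members rose with no low-count filter and 0 in the other settings. Over all genes, the calls from P12 to P80 numbered 301 as reported, 637 with DESeq2, 877 with no low-count filter, 521 with P12 replicates 2 and 3 kept apart, 490 with limma-voom and 173 against a 1.5-fold change, and from 71 (without P12 replicate 1) to 446 with any one sample left out. From E16 to P12 they numbered 5765 as reported and 3748 without P12 replicate 2-3. From P80 to P310 they numbered 0 in edgeR (1162 genes at an unadjusted p under 0.05), 28 with DESeq2 and 423 with no low-count filter. The cause was not tested. Of 29 called log2 changes of members, 23 were called under every one of the 23 alternatives, 6 were lost under at least 1 and 0 changed sign. Between ages, the correlations of the deviations of samples sharing a replicate number ran from -0.0936 to 0.208. Those of samples with different numbers ran from -0.233 to 0.233. The deviations of the 2 P12 samples mirror each other by construction. These values therefore cannot decide whether replicate numbers pair the samples. With a replicate block 25 members rose at P12 and 3 fell at P80. With 2 samples at P12 the steps into and out of that age have the least replication.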
